A study of Mus musculus with 24 samples.

Results

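Muscle fibres release peptides and proteins that act on muscle itself and on other tissues, and 10 genes for such secreted factors or their inhibitors are described here across 8 groups of mouse calf muscle. They are Ostn, Dkk3, Stc2, Mstn, Fst, Fndc5, Metrnl, Il15, Fgf21 and Angpt1, taken as a named list of 10 genes from the 54752 gene IDs of the deposited count tables. Earlier results of the same libraries were known when the list was drawn up, and for Ostn, Dkk3 and Stc2 those results included their levels in tamoxifen-treated males. Their values in comparisons that use those libraries are therefore given as a description without a p-value. All 10 genes had counts. In every comparison 9 passed the filter on low counts, and Fgf21 did not.

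RNA was sequenced from the gastrocnemius in 24 libraries, 3 in each of 8 groups, and the design crossed tamoxifen with a Cre transgene in each sex. The tested genotype, called transgene here, was HSA-MCM with Numb(f/f) and NumbL(f/f): floxed alleles of Numb and Numbl, adaptor proteins of endocytosis and Notch signalling, together with MerCreMer, a Cre recombinase activated by tamoxifen, under the human skeletal actin promoter of muscle fibres. The other genotype, called flox here, was Numb(f/f)/NumbL(f/f), with the same floxed alleles and no Cre. The groups were tamoxifen and vehicle transgene females, tamoxifen and vehicle flox females, tamoxifen and vehicle transgene males, and tamoxifen and vehicle flox males. No age of the animals, tamoxifen dose or time after dosing is given in the sources used. The labels do not say that each library came from a separate animal, and a p-value here measures only spread among libraries, which may be technical. Since every group carried the floxed alleles, no group had unmodified Numb and Numbl alleles by its genotype label, although the 6 flox male libraries are titled WT.

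Musclin, encoded by Ostn, is a peptide that binds the clearance receptor for natriuretic peptides, and its expression in skeletal muscle is known to respond to insulin and exercise. Myostatin restrains muscle growth through activin receptors and is held in check by follistatin, while the secreted protein Dkk3 belongs to a family known for inhibitors of Wnt signalling. Irisin, cut from the Fndc5 protein, meteorin-like, interleukin 15, Fgf21, stanniocalcin 2 and angiopoietin 1 complete the list with factors studied in energy balance, immune cells, growth factor processing and blood vessels.

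Libraries held 21516819 to 43014516 counts. Transgene females lay in 1 table, flox females in another and males in the remaining one, so sex and table, and genotype and table in females, cannot be told apart. In 3 transgene male libraries the title says vehicle and the treatment field says tamoxifen, and these were grouped by title. The transgene male response, the vehicle male comparison, the male difference of responses, the mean response and the sex difference rest on that grouping. Fits without these 3 libraries, on the 6 libraries compared, gave log2 changes in flox males of −1.05 for Ostn, −3.47 for Dkk3 and 0.85 for Il15, and a ratio of −1.52 for Il15 in transgene over flox males after tamoxifen (adjusted p = 0.0073, edgeR's quasi-likelihood test). In those 3 libraries Flrt1, a gene chosen after its values were seen, had 3.26, 3.65 and 3.68 CPM (counts scaled to library size), against 8.56 to 280 CPM over the 12 libraries of the tamoxifen groups and 1.02 to 2.79 CPM over the other 9 vehicle libraries. Esr1 counts, which can include reads of the oestrogen receptor part of MerCreMer, ran from 399 to 1951 CPM in transgene libraries and from 22.8 to 42.1 CPM in flox libraries. Numb, at 15.4 to 25.3 CPM, and Numbl, at 2.67 to 6.49 CPM, passed the test in none of the 4 tamoxifen comparisons, where the adjusted p of edgeR's quasi-likelihood test ranged from 0.187 to 1 for Numb and from 0.153 to 0.594 for Numbl. In the mean response over the 4 sex and genotype strata both passed that test, Numb at −0.19 ± 0.04 on the log2 scale (adjusted p = 0.00761) and Numbl at 0.42 ± 0.08 (adjusted p = 0.00261). That mean includes flox mice, which carry no Cre. By stratum Numb was at −0.24 in transgene and −0.28 in flox females, and at 0.0001 in transgene and −0.23 in flox males. Numbl was at 0.45, 0.41, 0.34 and 0.51 in the same order. Markers of the labelled muscle were abundant: 8 fast fibre genes summed to 117500 to 233900 CPM in every library. Myh7, the slow fibre myosin, varied from 9.97 to 2658 CPM, was lowest in tamoxifen transgene male 3 and vehicle transgene male 3, and passed the test in no comparison.

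Per kilobase of exon, Fndc5 was the most abundant member, with a median of 31.6 CPM per kb over the 24 libraries. Mstn followed at 24.2 CPM per kb and Ostn at 16.0 CPM per kb. The range of Ostn was wide, from 1.80 to 132 CPM per kb, and overlapped those of both. Il15 had a median of 2.86, Angpt1 of 2.56 and Metrnl of 2.55 CPM per kb, and their ranges overlapped. Dkk3 had a median of 1.35, Stc2 of 0.859 and Fst of 0.770 CPM per kb. Fgf21 had 7 counts in all and none in 18 of 24 libraries, and a count of 0 allowed a level of up to 0.0697 to 0.139 CPM, depending on the library (3 counts, for counting error only). Fgf21 is a hormone of fasting and mitochondrial stress. Of 15 listed genes of its receptors and of the integrated stress response, 13 or 14 were tested and none was called in the 4 tamoxifen comparisons.

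Ostn, the musclin gene on the plus strand of chromosome 16 (GRCm38, chr16:27307489-27351212), was lower after tamoxifen in both genotypes and both sexes. In transgene females it had 6.82, 4.001 and 19.5 CPM after tamoxifen, against 56.3, 76.2 and 53.4 CPM after vehicle. In flox females it had 37.5, 19.8 and 26.2 CPM after tamoxifen, against 187, 109 and 136 CPM after vehicle. In neither female genotype did a tamoxifen library reach the lowest vehicle library, although tamoxifen transgene female 3 was well above the other two of its group. Transgene males had 5.67, 5.65 and 2.57 CPM after tamoxifen, against 18.9, 23.6 and 20.7 CPM after vehicle. Flox males had 13.7, 22.0 and 21.3 CPM after tamoxifen, against 38.9, 35.0 and 44.7 CPM after vehicle. The groups did not overlap here either, so treated libraries lay below their vehicle libraries in all 4 sex and genotype strata.

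The log2 fold change of Ostn, tamoxifen over vehicle, was −2.61 ± 0.63 (SE, n = 3 per group) in transgene females. It was −2.37 ± 0.32 in flox females. Neither passed edgeR's quasi-likelihood test over all genes, with adjusted p = 0.151 in the transgene and 0.133 in the flox genotype. DESeq2 on the same counts called both, with adjusted p = 0.00379 in the transgene and 2.62e-08 in the flox genotype. Without tamoxifen transgene female 3 the edgeR fold was −3.50 with adjusted p = 0.0232. Counting these, the threshold was passed in 3 of 12 alternatives in the transgene and 3 of 13 in the flox genotype. In males the fold change was −2.19 ± 0.27 in transgene mice and −1.06 ± 0.25 in flox mice, given without a test. In bulk muscle, fewer cells of a type and less RNA per cell cannot be told apart, for Ostn as for every gene below.

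Musclin RNA was also lower in transgene than in flox males, whose libraries share 1 table. After tamoxifen it averaged 4.63 ± 1.79 CPM (SD, n = 3) in transgene males and 19.0 ± 4.63 CPM in flox males, a log2 ratio of −2.04 ± 0.27 (SE). After vehicle it averaged 21.1 ± 2.33 CPM in transgene males and 39.5 ± 4.90 CPM in flox males, a log2 ratio of −0.92 ± 0.25 with adjusted p = 0.11 in edgeR's quasi-likelihood test. The vehicle groups did not overlap, but the difference missed the threshold. Some sums of marker genes also differed between vehicle males. The 5 tendon genes summed to 80.7 to 112 CPM in transgene males and 134 to 187 CPM in flox males. For 8 blood cell genes the sums were 281 to 355 CPM in transgene males and 512 to 945 CPM in flox males. The 6 adipocyte genes summed to 98.4 to 143 CPM in transgene males and 134 to 216 CPM in flox males, and overlapped. Yet the median log2 ratio of the tested genes was −2.05 for adipocyte, −1.14 for tendon and −0.61 for blood cell genes. Over all genes it was −0.02. Higher instead were the 8 fast fibre genes, at 150900 to 195700 CPM in transgene and 130400 to 141200 CPM in flox males. No gene of these lists was called there, and their part in the genotype differences of vehicle males was not tested. Sums of the other cell type marker lists overlapped. Of their genes only Myog, of the satellite cell and regeneration list, was called, at −2.07 ± 0.36 (adjusted p = 0.0217, edgeR's quasi-likelihood test). Fitted on the 6 vehicle male libraries by themselves, the Ostn difference passed, with adjusted p = 0.0201. The tamoxifen comparisons and the genotype comparison of treated males share libraries, so these values are not independent of each other.

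Exons of Ostn overlap those of the antisense gene Gm32312 over 184 bases, and whether the counting used strand is not stated in the sources used. Gm32312 had 18 counts in all libraries together, against 33024 for Ostn. Of the genes for natriuretic peptides and their receptors, the family whose clearance receptor musclin binds, 7 were listed and 4 had enough counts to test. None of the 4 was called in any of the 10 comparisons made.

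Dkk3 encodes a secreted glycoprotein of the Dickkopf family and lies on the minus strand of chromosome 7 (chr7:112116017-112159057). It was lower after tamoxifen in every stratum, with larger folds in males. Transgene females had 1.78, 1.71 and 1.34 CPM after tamoxifen, against 3.07, 4.94 and 4.34 CPM after vehicle. In flox females the values were 1.52, 1.65 and 2.19 CPM after tamoxifen, against 10.7, 9.13 and 4.83 CPM after vehicle. Neither pair of groups overlapped, and vehicle flox female 3 stood below the other two of its group. Transgene males had 1.28, 1.70 and 0.880 CPM after tamoxifen, against 14.2, 23.9 and 36.2 CPM after vehicle. Flox males had 3.01, 6.38 and 4.75 CPM after tamoxifen, against 55.5, 65.0 and 37.5 CPM after vehicle. Every treated male library was thus below 7 CPM and every vehicle male library above 14 CPM.

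In transgene females Dkk3 fell by 1.34 ± 0.22 on the log2 scale, with adjusted p = 0.0326 in edgeR's quasi-likelihood test. The call was lost without vehicle transgene female 2 or 3 or without tamoxifen transgene female 1 or 3, with adjusted p from 0.0579 to 0.0981. It was also lost with Myh7 as a covariate, at adjusted p = 0.0913, with a log2 fold change of −1.19. In the fit on all 24 libraries it was lost too (adjusted p = 0.0831, the same test), and 6 of 12 alternatives passed. Myh7 had 2658, 1090 and 2438 CPM in tamoxifen transgene females, against 1084, 334.5 and 1733 CPM in vehicle transgene females. In flox females the log2 fold change was −2.19 ± 0.32 with adjusted p = 0.0776 in the same test, and without vehicle flox female 3 it was −2.47 with adjusted p = 0.00362. Counting this, the threshold was passed in 3 of 13 alternatives and missed in 10. The folds in males were −4.27 ± 0.45 in transgene mice and −3.48 ± 0.40 in flox mice.

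In vehicle-treated muscle the level of Dkk3 was higher in both male groups than in both female groups. It averaged 24.7 ± 11.03 CPM in vehicle transgene males and 52.7 ± 13.9 CPM in vehicle flox males (SD, n = 3 each), with 1 flox library, at 37.5 CPM, close to the highest transgene library, at 36.2 CPM. That genotype difference, −1.09 ± 0.36 on the log2 scale, did not pass edgeR's quasi-likelihood test (adjusted p = 0.17). After tamoxifen Dkk3 averaged 1.29 ± 0.412 CPM in transgene males and 4.71 ± 1.69 CPM in flox males, a log2 ratio of −1.88 ± 0.47. Vehicle females averaged 4.12 ± 0.953 CPM in transgene mice and 8.23 ± 3.05 CPM in flox mice, below both vehicle male groups, though sex and table cannot be told apart. The female vehicle groups overlapped, at 3.07 to 4.94 CPM in transgene and 4.83 to 10.7 CPM in flox mice.

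Among other genes of Wnt reception and the Dickkopf family, 14 or 15 of 18 listed could be tested. None was called in any of the 4 tamoxifen comparisons. Over the mean of the 4 strata Frzb, a secreted Wnt inhibitor, was higher by 0.79 ± 0.22 on the log2 scale (adjusted p = 0.036, edgeR's quasi-likelihood test), and no other was called.

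Stc2, which encodes stanniocalcin 2, an inhibitor of the protease that releases IGF from its binding proteins, differed in direction between strata. The gene lies on the minus strand of chromosome 11 (chr11:31357307-31370074). Transgene females had 4.48, 4.18 and 6.48 CPM after tamoxifen, against 10.9, 12.1 and 8.77 CPM after vehicle, with no overlap. Flox females had 11.6, 6.91 and 9.08 CPM after tamoxifen, against 6.93, 5.65 and 7.79 CPM after vehicle, and these groups overlapped. Treated females were thus lower than vehicle females in 1 genotype and not distinct from them in the other. Transgene males had 6.39, 4.40 and 4.03 CPM after tamoxifen, against 0.947, 1.16 and 2.08 CPM after vehicle. Flox males had 2.57, 3.19 and 4.39 CPM after tamoxifen, against 0.835, 1.12 and 0.316 CPM after vehicle. In both male genotypes every treated library was above every vehicle library.

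In transgene females Stc2 fell by 1.06 ± 0.19 on the log2 scale, with adjusted p = 0.0359 in edgeR's quasi-likelihood test. The call was lost without vehicle transgene female 1 or 2, without tamoxifen transgene female 1 or 2, or with Myh7 as a covariate, with adjusted p from 0.0673 to 0.137. The log2 fold change was −0.97 with the covariate and −0.96 to −1.28 leaving out 1 library. In flox females the log2 fold change was 0.44 ± 0.19 (adjusted p = 0.571). The difference between the female genotypes, transgene minus flox, was −1.51 ± 0.40 and did not pass edgeR's test (adjusted p = 0.468). In males the log2 fold change was 1.83 ± 0.37 in transgene mice and 2.12 ± 0.40 in flox mice. Between vehicle males, Stc2 averaged 1.395 ± 0.603 CPM in transgene mice and 0.758 ± 0.409 CPM in flox mice (SD, n = 3 each), and the groups overlapped (adjusted p = 0.332). Of 7 listed genes of stanniocalcins, IGFs and the protease that frees them, 5 or 6 could be tested in a tamoxifen comparison, and only Igf1 was called, in flox males. Over the mean of the 4 strata Igf1 fell by 0.36 ± 0.10 and its receptor gene Igf1r rose by 0.24 ± 0.07 (adjusted p = 0.0316 and 0.0321, edgeR's test).

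The bases upstream of the Stc2 and Mstn starts are shown as the windows of the RefSeq promoter table (GRCm38.p6) that belong to members described here library by library. It held windows for 5 of the 10 members, Stc2, Mstn, Fndc5, Metrnl and Fgf21. Each window below is the 250 bases before the RefSeq start on the strand of the gene, and capitals mark the E-box, CANNTG, the motif of basic helix-loop-helix factors such as the myogenic regulators. The Stc2 window is chr11:31370062-31370311 on the minus strand and the Mstn window is chr1:53061390-53061639 on the plus strand.
Stc2: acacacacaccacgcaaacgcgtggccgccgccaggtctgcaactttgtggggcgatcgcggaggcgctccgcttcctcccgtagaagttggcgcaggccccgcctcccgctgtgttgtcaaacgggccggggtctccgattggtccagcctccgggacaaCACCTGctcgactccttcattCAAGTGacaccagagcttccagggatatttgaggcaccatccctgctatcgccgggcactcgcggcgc
Mstn: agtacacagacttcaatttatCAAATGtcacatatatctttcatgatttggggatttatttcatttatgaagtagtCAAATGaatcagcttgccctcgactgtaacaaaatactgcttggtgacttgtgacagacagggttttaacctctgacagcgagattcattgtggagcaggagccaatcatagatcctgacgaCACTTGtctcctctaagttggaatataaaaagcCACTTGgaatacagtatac
The Stc2 window had 64.4% G and C and E-boxes that begin 89 and 68 bases before the start, whereas the Mstn window had 38.4% G and C and 4 E-boxes, that begin 229, 174, 52 and 19 bases before it. E-boxes stood in 66.2% of all 32851 windows of this length, whose median G and C content was 52.4%. The Mstn window also held TATAAA, which begins 29 bases before the start and was found in 12.4% of all windows, and the Stc2 window did not. Neither window held AGGTCA, an oestrogen receptor half-site present in 14.0% of windows, or the full oestrogen response element, present in 0.0639%. Neither held GTAAACA, a FoxO site present in 3.17%, a MEF2 site, present in 3.2%, or TGATGNAA, an ATF4 site present in 3.45%. Both strands were searched for these 7 motifs, and a match or its absence describes letters in these windows and not a bound factor.

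**Figure D1:**
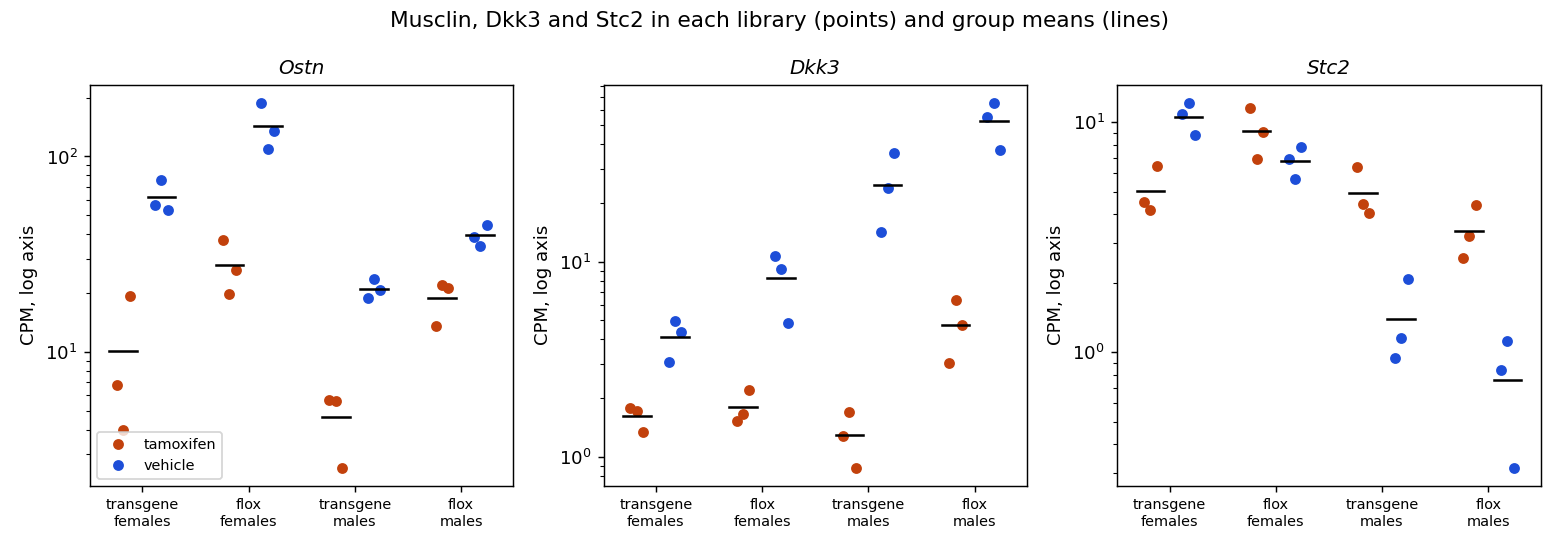
Level of Ostn, Dkk3 and Stc2 in each of the 24 libraries (CPM, log axis), by sex, genotype and treatment; points are libraries and bars are group means. Treated Ostn and Dkk3 libraries lie below vehicle libraries in all 4 strata, while treated Stc2 libraries lie below vehicle in transgene females and above it in both male genotypes.

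Averaged over genotypes, the fitted responses of Dkk3 and Stc2 lay farther apart between the sexes than that of Ostn. The log2 response to tamoxifen, male minus female, was −2.10 ± 0.39 for Dkk3 and 2.30 ± 0.31 for Stc2, against 0.87 ± 0.42 for Ostn, in a fit on all 24 libraries. These 3 values used treated males and are a description. Over the mean of the 4 strata the log2 response was −2.06 ± 0.22 for Ostn, −2.83 ± 0.19 for Dkk3 and 0.83 ± 0.16 for Stc2. The last of these averages responses of opposite direction.

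Between the male genotypes, the responses of transgene mice minus flox mice were −1.13 ± 0.36 for Ostn, −0.79 ± 0.59 for Dkk3 and −0.30 ± 0.54 for Stc2. These are given without a test. In females the same differences were −0.26 for Ostn (adjusted p = 1) and 0.83 ± 0.55 for Dkk3 (adjusted p = 0.916), neither past edgeR's threshold. No member was called for this difference in females. In males none was called among the members other than Ostn, Dkk3 and Stc2.

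Mstn, the myostatin gene on chromosome 1 (chr1:53061640-53068079, plus strand), passed edgeR's test in no tamoxifen comparison. In transgene females it had 51.7, 55.5 and 43.3 CPM after tamoxifen, against 91.7, 76.9 and 54.4 CPM after vehicle. Flox females had 72.9, 54.0 and 57.9 CPM after tamoxifen, against 69.4, 43.0 and 54.0 CPM after vehicle. Both pairs of female groups overlapped. Transgene males had 48.2, 93.7 and 99.6 CPM after tamoxifen, against 109, 77.0 and 111 CPM after vehicle. Flox males had 61.8, 50.9 and 60.4 CPM after tamoxifen, against 77.8, 92.6 and 217 CPM after vehicle. Only in flox males did the groups not overlap, and vehicle flox male 3 stood far above the other two. The log2 fold changes were −0.56 ± 0.20, 0.15 ± 0.19, −0.30 ± 0.40 and −1.17 ± 0.41 in the order just given, with adjusted p from 0.181 to 0.883 in edgeR's quasi-likelihood test. Without vehicle flox male 3 the value in flox males was −0.56. In transgene females Mstn was called by DESeq2 (adjusted p = 0.0427) and by edgeR without vehicle transgene female 3 (adjusted p = 0.0484).

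Fst, the follistatin gene (chr13:114452290-114458951, minus strand), whose product binds and blocks myostatin and activins, stayed within 2.16 to 4.66 CPM over all libraries. Its log2 response ranged from −0.35 to 0.29 over the 4 strata, with adjusted p from 0.578 to 0.987 in edgeR's test. Of 21 listed genes of the myostatin and follistatin pathway, 19 to 21 could be tested in a comparison. In flox males 1 was called, the myostatin paralogue Gdf11, lower by 1.29 ± 0.24 on the log2 scale (adjusted p = 0.0164). The pathway had no called gene in the other 3 tamoxifen comparisons. Over the mean of the 4 strata Gdf11 (−0.87 ± 0.14, adjusted p = 0.000658) and the activin receptors Acvr2a (−0.33) and Acvr2b (−0.33) fell, and Ltbp4, which binds latent growth factors, rose by 0.26. Acvr2a shares exon bases with Orc4, so its count is uncertain. In vehicle males the receptor gene Acvr1b was higher in transgene than in flox mice by 0.68 ± 0.13 (adjusted p = 0.0273, edgeR's test).

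Il15 encodes interleukin 15, a cytokine made in muscle that acts on lymphocytes, and lies on the minus strand of chromosome 8 (chr8:82331632-82403222). It was lower in transgene than in flox males after tamoxifen. Treated transgene males had 3.89, 2.83 and 2.79 CPM, against 7.32, 10.8 and 8.97 CPM in treated flox males. The groups did not overlap. Vehicle transgene males had 4.49, 4.05 and 2.24 CPM, against 5.09, 5.12 and 4.91 CPM in vehicle flox males, and these groups did not overlap either but lay close together. Across females Il15 had 9.16, 3.48 and 9.63 CPM in treated and 7.17, 7.09 and 8.56 CPM in vehicle transgene mice, and 6.44, 9.69 and 9.89 CPM in treated and 8.88, 6.47 and 6.43 CPM in vehicle flox mice. Female treatment groups overlapped in both genotypes.

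The log2 ratio of Il15 in transgene over flox males was −1.51 ± 0.23 after tamoxifen, with adjusted p = 0.00333 in edgeR's quasi-likelihood test. It passed in 20 of 20 alternatives, with adjusted p up to 0.0219, the value with Myh7 as a covariate, where the ratio was −1.19. After vehicle it was −0.49 ± 0.23 (adjusted p = 0.293). The difference of the male responses, transgene minus flox, was −1.02 ± 0.32 and did not pass (adjusted p = 0.396). None of 8 slow fibre markers was called between treated males. Their sum was 147 to 2835 CPM in transgene males and 2649 to 3382 CPM in flox males, and Myh7 had 759, 214 and 9.97 CPM in transgene males, against 987, 1101 and 831 CPM in flox males. The 6 adipocyte markers summed to 114 to 153 CPM in treated transgene males and 128 to 300 CPM in treated flox males, and overlapped. Their median log2 ratio, transgene over flox, was −1.06. Of other lists, mural genes had 325 to 352 CPM in transgene and 366 to 433 CPM in flox males. Satellite cell and regeneration genes had 30.2 to 40.5 against 42.8 to 71.6 CPM. Denervation and junction genes had 56.3 to 73.6 against 81.7 to 99.7 CPM. Fibroblast and fibro-adipogenic progenitor genes were higher, at 524 to 544 against 333 to 442 CPM. The remaining sums overlapped. The part of all these sums in the differences between treated males was not tested.

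Other genes of the interleukin 15 receptor were not called in any comparison, among 7 or 8 tested of 8 listed. In males the tamoxifen response of Il15 was −0.18 ± 0.23 in transgene mice and 0.84 ± 0.22 in flox mice. The flox male response, in which treated libraries were all above vehicle libraries, missed the threshold with adjusted p = 0.063 and passed it in 8 of 20 alternatives.

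Angpt1, angiopoietin 1, the ligand of the Tie2 receptor on blood vessels (chr15:42424723-42676977, minus strand), lay lower after tamoxifen in flox females and higher in flox males. Flox females had 7.26, 8.91 and 9.08 CPM after tamoxifen, against 12.8, 11.95 and 13.7 CPM after vehicle. Flox males had 23.7, 27.8 and 20.3 CPM after tamoxifen, against 15.8, 14.0 and 11.8 CPM after vehicle. Neither pair overlapped, and neither fold passed the test, −0.60 ± 0.12 in females (adjusted p = 0.133) and 0.78 ± 0.32 in males (adjusted p = 0.233, edgeR's quasi-likelihood test). In transgene females the values were 13.7, 10.4 and 15.7 CPM after tamoxifen and 15.3, 13.1 and 14.1 CPM after vehicle. In transgene males they were 14.2, 8.73 and 8.50 CPM after tamoxifen and 12.03, 13.6 and 4.92 CPM after vehicle, and both transgene pairs overlapped. Its log2 ratio in transgene over flox males after tamoxifen was −1.20 ± 0.32, with no overlap and adjusted p = 0.0612, and it passed in 7 of 20 alternatives. Among 8 listed genes of angiopoietins, Tie receptors and vascular growth factor receptors, 7 were tested, and only Kdr, a receptor of vascular growth factor, was called, lower by 0.48 ± 0.15 over the mean of the 4 strata.

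Angpt1 exons overlap those of the antisense gene Gm17473 over 737 bases, which had 196 counts against 9964 for Angpt1. Fst overlaps Gm47040, which had 5 counts.

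**Figure D2:**
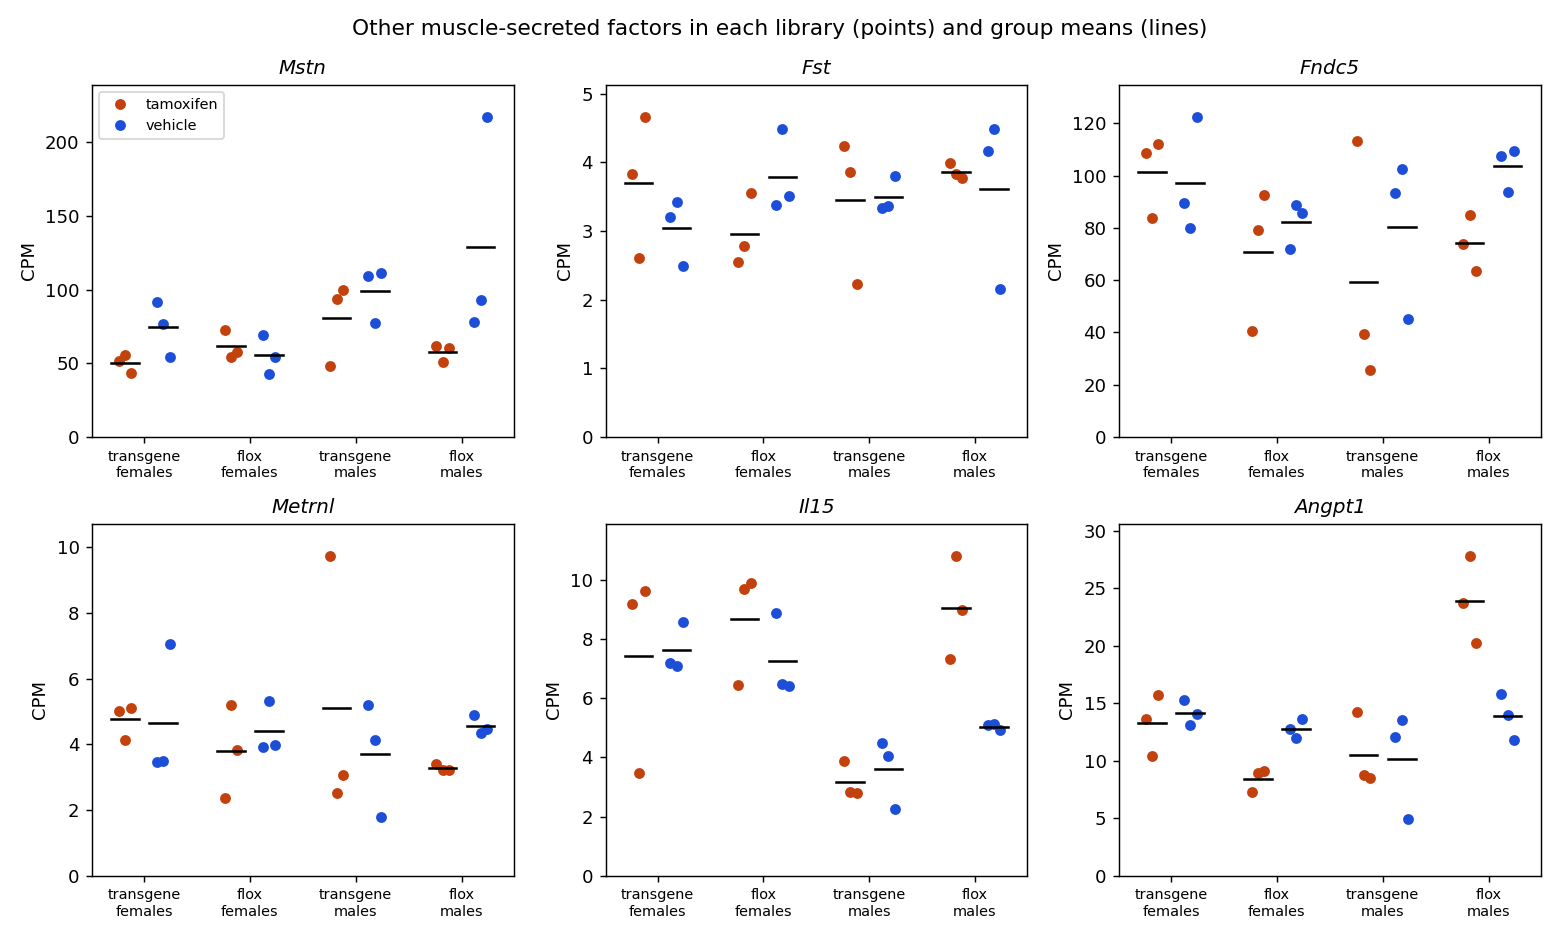
Level of Mstn, Fst, Fndc5, Metrnl, Il15 and Angpt1 in each library (CPM, linear axis), by sex, genotype and treatment. Points are libraries and bars are group means. Il15 in tamoxifen transgene males lies at 2.79 to 3.89 CPM, below tamoxifen flox males at 7.32 to 10.8 CPM, and Fst spans the narrowest range, 2.16 to 4.66 CPM.

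Fndc5, the precursor of irisin (chr4:129136999-129144593, plus strand), ranged from 25.6 to 122 CPM. Its log2 response was 0.07 in transgene and −0.21 in flox females, and −0.44 in transgene and −0.49 in flox males, with adjusted p from 0.674 to 0.9 in edgeR's test. Metrnl, the gene of meteorin-like (chr11:121701544-121716306, plus strand), ranged from 1.80 to 9.74 CPM, with log2 responses of 0.04, −0.21, 0.46 and −0.48 in the same order and adjusted p from 0.659 to 0.964. In transgene males the 3 treated libraries were spread from 25.6 to 113 CPM for Fndc5 and from 2.53 to 9.74 CPM for Metrnl. Without tamoxifen transgene male 1, the highest of the 3, the log2 response in transgene males was −0.39 for Metrnl and −1.29 for Fndc5; without tamoxifen transgene male 3 it was −0.08 for Fndc5. Flox male groups did not overlap for either gene, with treated libraries lower, but neither passed. Of the 6 listed genes of the irisin axis, the integrin gene Itgav was higher in transgene than in flox males after tamoxifen by 0.52 ± 0.12 (adjusted p = 0.0226), and Itgb5 fell by 0.19 over the mean of the 4 strata (adjusted p = 0.0249).

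Within groups, Fndc5 moved with slow fibre myosin. After each library was centred on its group mean, log2 CPM of Fndc5 and Myh7 correlated with Pearson r = 0.885 and Spearman rho = 0.819 over 24 libraries. Without tamoxifen transgene male 1 and 3, the libraries farthest in Myh7, r was 0.799 (n = 22). Metrnl correlated with Myh7 at r = 0.707, Angpt1 at 0.714 and Il15 at 0.549. Mstn correlated at −0.476, and at −0.277 without the 2 libraries. Ostn, Dkk3 and Stc2 had r = 0.306, 0.019 and −0.117, and r = 0.031, −0.236 and −0.483 without the 2 libraries. In males r was 0.712 for Ostn, against −0.079 in females. Both libraries left out above are male, and the male r was not computed without them. These points share their library and its depth scaling, and no p is given.

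**Figure D3:**
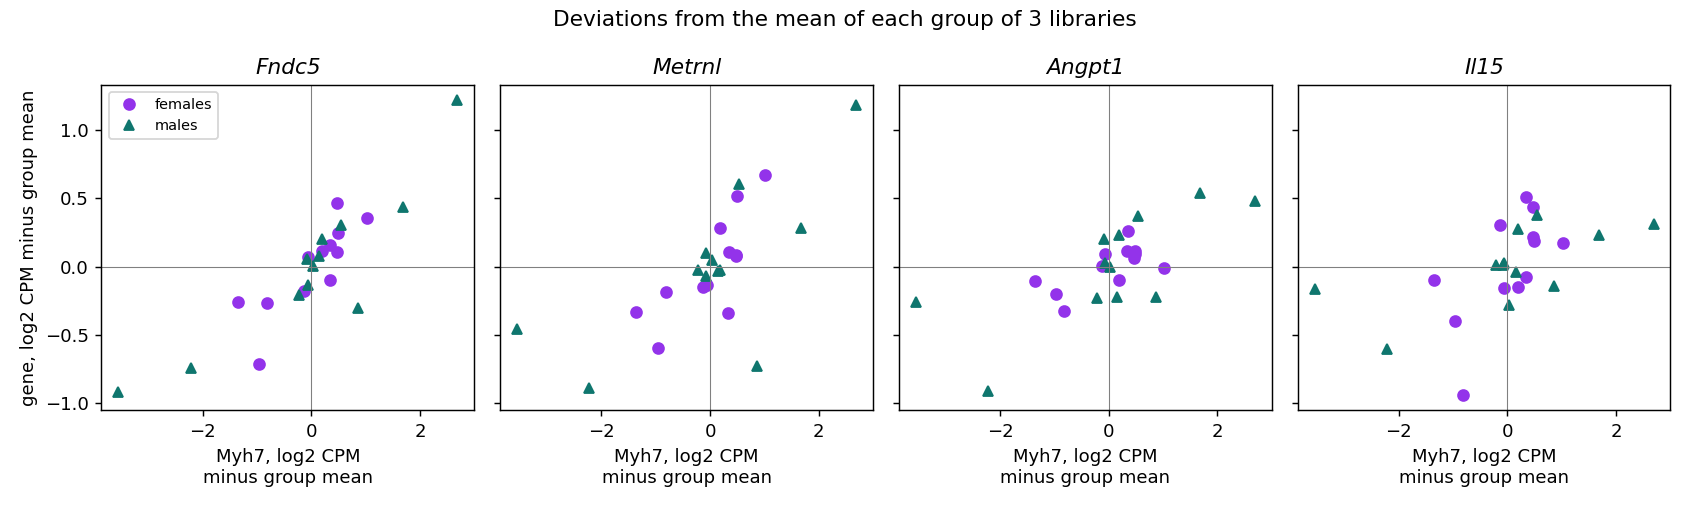
Deviation of each library from its group mean in log2 CPM of Myh7 (x axis) and of Fndc5, Metrnl, Angpt1 or Il15 (y axis), with 1 panel per gene. Each point is 1 of 24 libraries. Correlation with Myh7 is r = 0.885 for Fndc5, 0.707 for Metrnl, 0.714 for Angpt1 and 0.549 for Il15.

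Counted together, 2 of 9 members tested were called after tamoxifen in transgene females, both lower (Dkk3 and Stc2), where 1.32% of all genes tested were called and 0.704% were called lower. In flox females none was called, where 0.131% of genes were; 4 members had an unadjusted p under 0.05, and DESeq2 called 3. Ostn, Dkk3 and Stc2 are described without a test wherever treated males are used. No other member was called in transgene males, beside 0.889% of genes, or in flox males, beside 2.89%. Transgene over flox after tamoxifen, Il15 was the only other member called, lower, where 5.23% of genes were called and 2.46% called lower. After vehicle none of the 9 was called, beside 0.947%, where 2 had an unadjusted p under 0.05 and DESeq2 called 2.

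For the difference of responses between genotypes no member was called in females, and none besides Ostn, Dkk3 and Stc2 in males. In males 0.0128% of genes were called, and of the members tested there Il15 had an unadjusted p under 0.05 in edgeR's test. In females 0.006% were called, and 1 member had an unadjusted p under 0.05. Apart from Ostn, Dkk3 and Stc2, no member was called over the mean of the 4 strata, beside 8.83% of genes. The same held for the difference between sexes, beside 0.708%. Those 3 genes were chosen with the treated males known and are not counted as calls in comparisons that use those libraries. Nothing is therefore read from these counts against the shares of all genes. The median log2 response of the 9 members was −0.09 in transgene and −0.21 in flox females, and −0.18 in transgene and −0.48 in flox males. The medians over all genes tested were 0.01, 0.00, 0.01 and −0.01 in the same order. Groups did not overlap for 3 of 9 members in females of the transgene and 3 of the flox genotype, and for 3 in transgene males and 8 in flox males, beside 22.4%, 14.2%, 13.8% and 28.0% of all genes tested in those comparisons. Transgene over flox, they did not overlap for 4 members in treated males and 3 in vehicle males, beside 27.6% and 23.0% of genes.

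**Figure D4:**
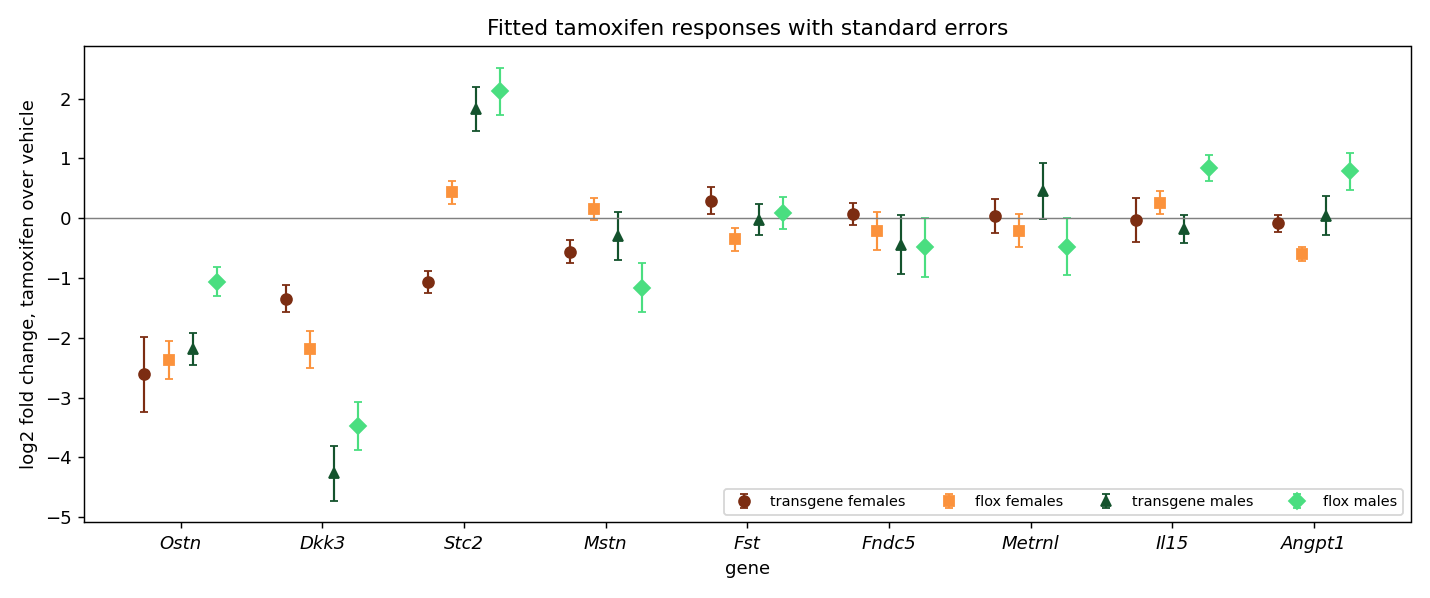
Log2 fold change, tamoxifen over vehicle, of the 9 tested members in the 4 sex and genotype strata; points are estimates of the fit and bars are ± 1 SE. Ostn and Dkk3 lie below 0 in all 4 strata, and Stc2 lies below 0 in transgene females and above 0 in males.

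A list of other muscle-secreted factors was set beside the members. It had 47 genes in the tables, of which 40 to 43 were tested in a tamoxifen comparison of a stratum. None was called in either female comparison. In transgene males periostin (Postn), a matrix protein, rose by 1.61 ± 0.25 on the log2 scale (adjusted p = 0.00842) and cystatin C (Cst3), a protease inhibitor, fell by 0.61 ± 0.12 (adjusted p = 0.0319, edgeR's quasi-likelihood test). In flox males Cst3, Gdf11 and Igf1, a growth factor of muscle, fell, by 0.78 for Cst3, 1.29 for Gdf11 and 0.74 for Igf1. Between treated males, transgene over flox, the growth factor gene Tgfb2 (0.84) and Postn (1.16) were higher and Gdf15, a stress-induced cytokine, was lower (−2.43 ± 0.65, adjusted p = 0.0465). After vehicle Tgfb2 was also higher in transgene than in flox males, by 0.52 ± 0.09 (adjusted p = 0.0217). In the mean of the 4 strata 4 of these genes rose, among them Igf2 (0.69) and Angptl2 (0.34), and 3 fell, among them Cst3 (−0.47) and Gdf11 (−0.87), beside 8.83% of all genes called in that comparison. The response of Igf2 differed between sexes, by 1.30 ± 0.27, male minus female (adjusted p = 0.0186, edgeR's test). Igf2 shares exon bases with Gm49394 and Igf2os, so its count is uncertain.

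Genes of FoxO and Akt signalling, through which insulin and IGF act on muscle, were listed because musclin is known to respond to insulin. Of 13 tested, 1 rose in transgene females, Foxo3 (0.44 ± 0.08, adjusted p = 0.0417, edgeR's test). Sesn1, a stress-induced inhibitor of growth signalling, rose in transgene males by 0.71 ± 0.13 and in flox males by 0.91 ± 0.13, and Foxo3 rose by 0.87 ± 0.15 in flox males. In flox females none was called. Averaged over the 4 strata, Foxo3, Sesn1, Eif4ebp1 and Pik3r1 rose, by 0.50, 0.32, 0.38 and 0.49 on the log2 scale. The responses of Sesn1 and Pik3r1 differed between sexes, by 0.98 ± 0.12 for Sesn1 and 1.26 ± 0.23 for Pik3r1, male minus female (adjusted p = 0.00025 and 0.0106, edgeR's test), so their means average unlike responses.

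The genes whose log2 CPM, centred on the 4 strata, varied most like Ostn over the 24 libraries were Vps35l (Pearson r = 0.881), Cdnf (0.87), Cpe (0.863), Cuedc1 (0.86) and Dnajc18 (0.859). For Dkk3 they were Ermp1 (0.939), Pla2g16 (0.911), Srebf1 (0.909), Macrod1 (0.906) and Cdk19 (0.901). For Stc2 they were Trp53rkb (0.908), Gstm2 (0.881), Setd6 (0.862), Ppp1r3d (0.852) and Kcnc4 (0.845). Ostn and Dkk3 themselves correlated at r = 0.748 when centred on the strata and at 0.155 when centred on the groups, which removes the difference between treatments. These are descriptions over libraries that share treatment and table.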

How the data were processed

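The authors deposited raw counts of reads per Ensembl ID, as whole numbers in 3 tables, from RNA of frozen gastrocnemius. The submitters' processing notes name STAR, featureCounts, limma, GRCm38 and mm10. No versions, library kit or strand setting are given in the sources used, so overlapping and antisense genes are uncertain. The GENCODE annotation of GRCm38 gave symbols for 54723 of 54752 IDs.

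Tests used edgeR 4.0.16 in R 4.3.3 on those counts: TMM scaling, filterByExpr (minimum count 10, minimum total 15), robust dispersions, the quasi-likelihood F-test and Benjamini-Hochberg adjustment over all genes tested, with a threshold of 0.05. The SE of a log2 fold change was its absolute value over the root of the F statistic. Each female comparison was fitted on its own 6 libraries, male comparisons on all 12 male libraries, and the female genotype difference, the mean response and the sex difference on all 24. CPM per library used TMM over all 24 libraries, and correlations used log2 CPM with a prior count of 2. The fits were tested on simulated data.

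The members, gene lists and tests were chosen with earlier results of these data known. Named genes are the 10 members, Numb, Numbl, Esr1 and Myh7, up to 4 called genes per list and comparison with the smallest p, and the 5 genes most like Ostn, Dkk3 and Stc2. Alternatives were RLE scaling, no filter, DESeq2 1.42.0, limma-voom (limma 3.58.1), Myh7 as a covariate, other sets of libraries, a replicate block and leaving out each library.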

Additional observations from a re-analysis of the deposited data

Results flagged for a closer look

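The fitted response to tamoxifen, male minus female, was −2.10 on the log2 scale for Dkk3 and 2.30 for Stc2 in the fit on all 24 libraries. These values are a description. Both values used the libraries known when the genes were chosen, and sex and table cannot be told apart. Stc2 moved in opposite directions in the sexes of transgene mice, with no overlap between treated and vehicle libraries in either: 1.83 in transgene males and −1.06 in transgene females. Within transgene mice this difference was not tested. For Angpt1, treated and vehicle libraries of flox mice also lay apart in opposite directions without passing the test, at 0.78 in flox males and −0.60 in flox females. That difference was not tested within flox mice, and over both genotypes it was 0.77 ± 0.25, male minus female, with adjusted p = 0.2 in edgeR's quasi-likelihood test. It passed in 1 of 29 alternatives, with Myh7 as a covariate, at 0.91 with adjusted p = 0.0134 in the same test.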

How the results depend on the processing

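Over the 10 comparisons, 1899 values of single members were recomputed. Of these, 1811 kept their side of the threshold, 50 lost their call, 38 gained one, and 0 called values changed sign. Of values without a call, 86 took the other sign. The members called in transgene females numbered 4 with DESeq2 and 0 with Myh7 as a covariate, and 0 to 2 leaving out 1 library. In flox females they numbered 2 without the filter, 3 with DESeq2, 1 with the covariate, and 0 to 1 leaving out 1 library. In flox males they numbered 6 in a fit on the 6 libraries compared, 5 without the transgene male libraries lowest in Myh7 (chosen after seeing the data), and 1 to 4 leaving out 1 library. Transgene over flox, vehicle males gave 2 with DESeq2, 1 in the fit on the 6 libraries and 0 to 1 leaving out 1 library. Leaving out 1 library gave 2 to 3 in transgene males and 2 to 4 between treated males. The sex difference had 1 with limma-voom. Fndc5 passed in the mean response only with Myh7 as a covariate (−0.31, adjusted p = 0.0372, edgeR's quasi-likelihood test). The cause of these changes was not tested. Counts in comparisons that use treated males include Ostn, Dkk3 and Stc2, described there without a test, and nothing is read from them.

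Counts over all genes ranged, in flox females, from 4 to 329 against 19, in transgene females from 97 to 941 against 187, in transgene males from 27 to 328 against 139, between vehicle males from 61 to 601 against 148, and for the male difference of responses from 0 to 79 against 2. In flox males they were 418 to 917 against 452, between treated males 501 to 1319 against 817, for the mean response 1215 to 1796 against 1472, for the sex difference 113 to 312 against 118, and for the female difference of responses 0 to 5 against 1. Leaving out 1 library gave 3 to 87 genes in flox females, 37 to 215 in transgene females, 68 to 151 in transgene males, 143 to 644 in flox males, 280 to 997 between treated males and 44 to 204 between vehicle males. For the differences of responses it gave 2 to 8 in males and 0 to 3 in females, for the mean response 1153 to 1456, and for the sex difference 82 to 209.

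Replicate numbers are shared by the flox female groups, but same-numbered libraries did not deviate together (correlations −0.20, −0.033 and −0.101). With groups of 3, whether they share more than a number cannot be told from these correlations. With the replicate block, 1 member was called in flox females (Ostn, adjusted p = 0.000132), and no library correlated best with its own number. Groups of 3 limit what could be detected, and Fgf21 had too few counts to test.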

Other observations

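Within groups, the members fell into patterns that the comparisons above do not show. After centring on group means over the 24 libraries, log2 CPM of Fndc5 and Metrnl correlated at r = 0.881, of Fndc5 and Angpt1 at 0.770 and of Fndc5 and Il15 at 0.609. Mstn ran the other way, at −0.613 with Fst, −0.605 with Metrnl and −0.581 with Fndc5. Fst and Stc2 correlated at 0.616. The points share their library and its depth scaling, and no p is given.

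Among genes of the denervation and junction list, Gadd45a, a stress gene that rises in denervated muscle, was higher after tamoxifen in flox males by 1.77 ± 0.23 on the log2 scale (adjusted p = 0.00304, edgeR's quasi-likelihood test) and lower in transgene than in flox males after tamoxifen, at −1.10 ± 0.22 (adjusted p = 0.0183). It shares 337 exon bases with E230016M11Rik, which had 703 counts against 13839. In the same treated males Chrna1, an acetylcholine receptor subunit, was lower by 0.52 ± 0.13 (adjusted p = 0.0352). Ncam1, of the same list, rose after tamoxifen in flox males by 0.73 ± 0.18 (adjusted p = 0.0492, edgeR's test). Over the mean of the 4 strata Chrna1 rose by 0.37, Chrng by 1.86 and Gadd45a by 0.47, and Musk fell by 0.32. Pdk4, a kinase that limits glucose oxidation, was lower in transgene than in flox males after tamoxifen, at −2.07 ± 0.50 (adjusted p = 0.0486). Psat1, an enzyme of serine synthesis, was lower in transgene than in flox males after vehicle, at −1.37 ± 0.26 (adjusted p = 0.0275).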
